A study of Homo sapiens with 24 samples.

Results

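Among 11317 protein-coding genes whose mean was 5 TPM or more in any group of SK-MES-1 libraries, 16 are described here. Their mean stood higher in the TGFβ arm than in untreated cells at 8 h, and at 48 h that excess was small, absent or reversed. TPM is a measure of transcript abundance corrected for transcript length and library size. For each gene the mean TPM of 3 TGFβ libraries plus 0.5 was divided by that of 3 untreated libraries plus 0.5 at the same time. Genes were chosen by the measured ratio, which had to be at least 1.7 at 8 h and at most 1.2 at 48 h. The first condition alone was met by 262 genes (2.32%), and the other 246 of them kept a ratio above 1.2 at 48 h and are called sustained here. The 16 genes are IL6, CEMIP, CCN1, PRSS22, JUN, PTPRE, ZC3H12A, JAG1, IER3, CDH6, TGM2, MGP, IGF1R, SLX1B, HBEGF and TP63, in the order of their ratio at 8 h. Because the 8 h and 48 h values chose them, those values are given as a description without a test. The libraries of 24 h and 0 h played no part in those ratios and are used for the tests, although the level of 5 TPM could be met in any group.

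SK-MES-1 is an established human line derived from lung squamous carcinoma. The cells were kept without serum for 3 h and then received 2 ng/ml TGFβ1 or nothing, and RNA was taken at 0, 8, 24 and 48 h. Each of the 8 groups of arm and time had 3 biological replicates, 24 libraries in all, and serum starvation was shared by both arms. Libraries held 46613589 to 77964234 estimated counts each. The untreated cells changed in their own right over the 48 h. The file names hold 4 codes, which separate the arms and, within each arm, 0 and 8 h from 24 and 48 h. A difference between the arms therefore coincides with a difference of code at every time, and so does a change within an arm from 0 or 8 h to 24 or 48 h. These cannot be told apart. Replicate 2 of the TGFβ arm stood apart at 0 h (chi-square per gene 60.46 and 40.21 against replicates 1 and 3, which differed by 16.76) and at 24 h (47.05 and 35.64 against 6.74), where 1 is sampling noise. Replicate 2 of untreated cells also stood apart, less far, at 0 h (22.65 and 14.67 against 9.13) and at 24 h (20.09 and 18.92 against 4.13). The counts of called genes are given with and without these libraries of the TGFβ arm. At 0 h, where TGFβ had no time to act, limma voom called 0 of 17453 genes (0%) between the arms at an adjusted p below 0.01, whereas 800 had an unadjusted p below 0.05, edgeR called 0 and DESeq2 called 8. All RNA came from whole dishes, so fewer cells of a kind and less RNA per cell cannot be told apart. Of 13 squamous and basal epithelial markers, KRT5, KRT6A, KRT14 and DSG3 stayed below 0.5 TPM in every library, and the summed level of the list was between 171.7 and 451.0 TPM. The marker sums of endothelial cells (at most 4.82 TPM), of neuroendocrine cells (at most 1.02) and of lung adenocarcinoma and alveolar cells (at most 2.10) were below 5 TPM in all libraries, while those of leukocytes summed to between 9.45 and 41.9 TPM, most of it from CD68, with PTPRC at no more than 2.01 TPM in any group. Those of fibroblasts ranged from 194.5 to 2403 TPM. Their list holds COL1A1, one of the sustained genes, and PDGFRB, at no more than 21.1 TPM in any group. Of its 6 tested genes, 2 were higher and 1 lower in the TGFβ arm at 24 h, with a median log2 difference of -0.04.

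TGFβ binds a pair of receptor kinases at the cell surface, which phosphorylate SMAD2 and SMAD3. These join SMAD4, enter the nucleus and act on target genes together with other factors, among them AP-1, the dimer of JUN and FOS family proteins. In parallel the receptors can reach the MAP kinase and PI3 kinase pathways. Early targets often include regulators with short-lived mRNA, such as transcription factors and secreted signals. Adenine- and uridine-rich elements in the 3′ untranslated region (UTR) mark many short-lived mRNAs for decay.

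Sequence around the start was held by RefSeq's promoter windows for 10 of the 16 genes, in 13 windows of GRCh38 that run from 250 bases before to 50 after a start. CCN1, PRSS22, IER3, CDH6, TGM2 and MGP had none. The windows below hold a searched motif in a gene whose values follow. A further window of PTPRE and that of SLX1B, where the match lies past the bases printed, also hold a motif and are not shown. The windows shown are cut at 30 bases after the start, 5′ to 3′ on the gene's strand. Capitals mark CAGACA or its complement TGTCTG, a repeat that SMAD proteins can bind, as well as GGGATTTTC in IL6 and TGACATCA in JUN. The last pair resembles sites of NF-κB and of AP-1 and was searched only after these windows had been read.
IL6, chr7:22726950-22727229, plus strand: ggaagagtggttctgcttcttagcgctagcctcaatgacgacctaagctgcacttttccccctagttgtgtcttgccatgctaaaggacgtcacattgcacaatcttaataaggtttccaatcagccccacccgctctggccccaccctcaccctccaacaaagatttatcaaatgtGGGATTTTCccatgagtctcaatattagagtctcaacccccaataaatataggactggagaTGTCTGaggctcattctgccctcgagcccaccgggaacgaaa
TP63, chr3:189631139-189631418, plus strand: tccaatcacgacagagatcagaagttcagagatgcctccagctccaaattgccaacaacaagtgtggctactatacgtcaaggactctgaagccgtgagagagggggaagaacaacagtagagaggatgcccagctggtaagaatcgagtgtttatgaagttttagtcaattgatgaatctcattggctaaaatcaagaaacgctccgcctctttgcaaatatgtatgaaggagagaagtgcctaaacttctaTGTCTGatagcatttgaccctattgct
PTPRE, chr10:127906853-127907132, plus strand: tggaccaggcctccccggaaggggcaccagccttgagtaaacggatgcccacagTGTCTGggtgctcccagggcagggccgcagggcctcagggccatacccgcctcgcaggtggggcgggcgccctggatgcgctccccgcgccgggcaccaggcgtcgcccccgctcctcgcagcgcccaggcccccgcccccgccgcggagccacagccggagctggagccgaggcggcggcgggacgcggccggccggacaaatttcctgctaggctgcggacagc
JUN, chr1:58784018-58784297, minus strand: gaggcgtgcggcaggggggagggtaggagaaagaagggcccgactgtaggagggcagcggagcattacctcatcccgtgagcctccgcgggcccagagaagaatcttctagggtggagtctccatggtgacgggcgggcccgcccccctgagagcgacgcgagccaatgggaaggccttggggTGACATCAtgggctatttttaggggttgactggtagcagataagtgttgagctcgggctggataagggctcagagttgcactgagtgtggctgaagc

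CAGACA, on either strand, was found in 5 of the 13 windows, those of IL6, TP63, SLX1B and 2 of the 4 windows of PTPRE. It was in 13.1% of the windows of all genes at this level and in 16.9% of all 35116 windows. In TP63 it began 3 bases after the start and in IL6 12 bases before it. The palindrome GTCTAGAC (0.139% of the windows of genes at this level), the AP-1 motif TGANTCA (5.22%), the cAMP response element TGACGTCA (2.87%), TGATGNAA (1.92%), the E-box CACGTG (9.31%), GGAATTCC (0.418%) and the CArG box (1.12%) were in 0 of the 13. TGACATCA stood 67 bases before the start of JUN and in 1.42% of the windows of genes at this level, and GGGATTTTC stood 73 bases before that of IL6 and in 0.198%. A match is a match of letters only.

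The 3′ UTR of the most expressed protein-coding transcript held the AU-rich nonamer TTATTTATT in 3 of the 16 genes (18.8%), against 7.56% of 11282 genes at this level with such a transcript. All 4 sites are shown because such elements are the best known decay signals in early response mRNAs. Capitals mark the nonamer, the strand is that of the gene, and the second window in PRSS22 ends with the transcript.
PRSS22, chr16:2852750-2852779, minus strand: cccacatatcTTATTTATTcctccaatttc
PRSS22, chr16:2852730-2852753, minus strand: tttcaataaaTTATTTATTctcca
JAG1, chr20:10639007-10639036, minus strand: aatgactttaTTATTTATTttttttaattg
CEMIP, chr15:80951585-80951614, plus strand: tattttctatTTATTTATTatatgtgcact

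At least 5 copies of the core pentamer ATTTA were in the 3′ UTR of 7 of the 16 genes (43.8%) and of 26.2% of all genes at this level. IL6 held 6 copies in a 3′ UTR of 425 bases, 14.12 per kb, and IER3 held 6 in 737 bases, 8.14 per kb, where the median of all genes was 1.56 per kb. JAG1 and PTPRE held 9 each, in longer 3′ UTRs of 1814 and 2949 bases. CDH6, ZC3H12A and SLX1B held 0, as did IGF1R, whose most expressed transcript has no annotated 3′ UTR. In CDH6 this refers to CDH6-205, with a 3′ UTR of 312 bases and 47.1% of the TPM of the gene. Its other transcripts were not searched. The median span was 11779 bases against 33830 over all genes, but the 16 genes varied widely, from 1350 bases in IER3 to 315992 in IGF1R, and TP63, PTPRE, CEMIP and CDH6 were also long, with CDH6, the shortest of them, at 135461 bases. At most 5 exons were in 31.2% of the 16 and 28.9% of all genes, and the median 3′ UTR was 1091 against 919 bases. JUN has 1 exon and IER3 has 2, whereas CEMIP has 29. These shares describe 16 genes and were not tested.

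The name of the group, a transient rise, was true of the ratio but, in most of the 16 genes, not of the level. From 8 h to 48 h the mean TPM of untreated cells was higher by a factor of at least 1.2 in 14 of the 16 genes, which held for 26.8% of all 11317 genes and for 30.9% of the sustained ones. In the TGFβ arm the level was lower at 48 h than at 8 h by that factor in 4 genes, PRSS22, JUN, JAG1 and HBEGF, a share close to the 24% of all genes. In 12 genes untreated cells were higher at 48 h by that factor while the TGFβ arm was not lower by it. Among these, CDH6 (0.838), IGF1R (0.847), CCN1 (0.920) and TP63 (0.932) were below their 8 h level in the TGFβ arm by less than that factor. JUN and HBEGF combined both movements, and PRSS22 was lower at 48 h in the TGFβ arm without being higher in untreated cells by that factor. JAG1 was lower at 48 h in both arms, at 0.691 times its 8 h level in untreated cells and 0.424 times in the TGFβ arm. The median ratio of 48 h over 8 h was 2.60 in untreated cells and 0.975 in the TGFβ arm, against 0.923 and 1.25 over the sustained genes. The rule asks for a falling ratio, so these counts describe which arm moved and carry no test. The level in the TGFβ arm was highest at 8 h in 7 genes (CCN1, PRSS22, JUN, JAG1, CDH6, IGF1R and HBEGF), at 24 h in TP63 and at 48 h in the other 8. A peak of that arm at 8 h was seen in 16.3% of all genes. Untreated cells were at their highest at 48 h in 13 of the 16 genes and in 35.8% of all genes.

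**Figure D1:**
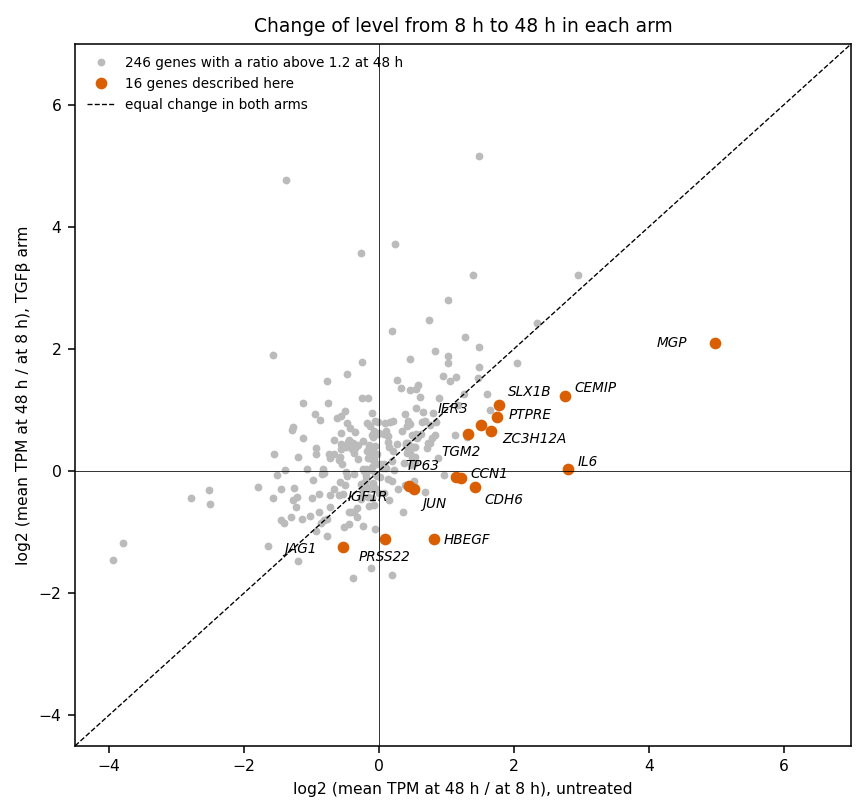
Each point is a gene, with the log2 ratio of its mean TPM at 48 h to that at 8 h in untreated cells on the x axis and in the TGFβ arm on the y axis (n = 3 libraries per mean). The 16 genes, in orange, all lie below the dashed line of equal change, as the rule requires. Of them, 14 lie to the right, with untreated cells higher at 48 h by a factor of at least 1.2, and 4 lie low, with the TGFβ arm lower by that factor. Grey points are the 246 sustained genes.

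At 24 h, between the times the rule used, the 16 genes divided. Limma voom called 8 of them higher in TGFβ-treated cells at an adjusted p below 0.01 (50%), where 15.4% of all 17453 tested genes were called higher and 13.8% lower. Among the 11317 genes at the level of the rule the shares were 20% and 15.3%. These 8 were CEMIP, JUN, TP63, TGM2, CCN1, IER3, JAG1 and PTPRE. None of the 16 was called lower, and edgeR and DESeq2 also called 8 higher and 0 lower. Without replicate 2 of the TGFβ arm at 24 h the count was 8 with a median of 0.66, and without replicate 2 of that arm at 0 h it was 9, then with IL6. At an unadjusted p below 0.05, limma voom had 9 higher and 1 lower. Over all 17453 tested genes, 8113 were below 0.05 in either direction. The median log2 difference of the 16 genes at 24 h was 0.51, against 1.69 for the 246 sustained genes, of which 239 (97.2%) were called higher, and -0.015 for all tested genes. In the 8 called genes the TPM of the arms did not overlap at 24 h, which was so, with TGFβ higher, in 20.8% of the genes at this level. PRSS22 was the only one of the 16 without overlap and with TGFβ lower, as in 23.8% of genes. By the ratio of means, 5 genes were still at 1.7 or above at 24 h, 5 lay between 1.2 and 1.7 and 6 were at 1.2 or below. In 4 genes, CEMIP, JUN, TGM2 and TP63, the ratio at 24 h was above that at 8 h.

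At 0 h the arms did not differ in any of the 16 genes by limma voom. EdgeR and DESeq2 also called 0, and 2 genes, CEMIP and SLX1B, had an unadjusted p below 0.05, both with TGFβ lower. The TPM values overlapped in 14 of the 16 and did not in IGF1R and SLX1B, where 5.34% of genes did not overlap in either direction. The change of the difference from 0 h to 24 h was tested as an interaction, and 8 genes passed with a rise (9.56% of all tested genes) and 0 with a fall (7.02%). Among genes at the level of the rule the shares were 12.5% and 8.43%. Those 8 are the same genes that were called at 24 h. The unadjusted p was below 0.05 with a rise in 9 and with a fall in 0, and edgeR and DESeq2 also called 8 and 0. Over all 17453 tested genes, limma voom had 5798 below 0.05 in either direction. Without replicate 2 of the TGFβ arm the count was 9 when it was left out at 24 h and 8 when it was left out at 0 h. As the codes in the file names change between 0 h and 24 h, this test does not separate treatment from code.

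**Figure D2:**
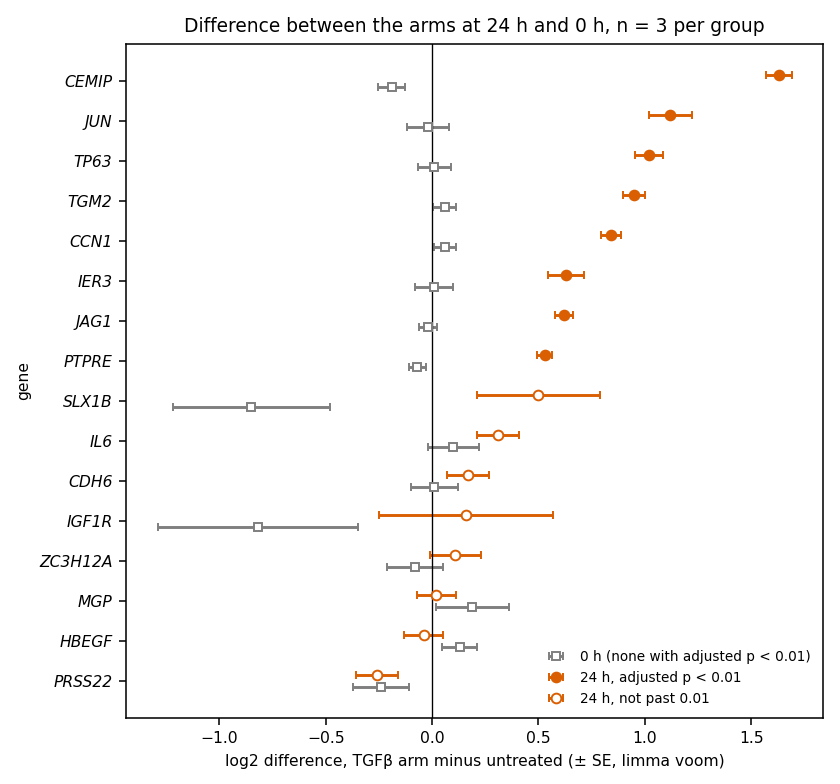
Points are log2 differences between the TGFβ arm and untreated cells (x axis, limma voom, bars are ± SE, n = 3 libraries per group) for each of the 16 genes (y axis), orange at 24 h and grey at 0 h. Filled points, 8 genes from PTPRE (0.53) to CEMIP (1.63), passed an adjusted p of 0.01 at 24 h, and IGF1R and SLX1B have the widest bars.

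Within each arm, the change from 0 h to 24 h was tested as well. In the TGFβ arm 13 of the 16 genes rose (24.3% of all tested genes rose) and HBEGF fell (22.7% fell). Among genes at the level of the rule, 29.6% rose and 28.7% fell in that arm, and 27.6% and 30.8% in untreated cells. In untreated cells 7 rose (23.8%), namely IL6, CCN1, PRSS22, PTPRE, ZC3H12A, MGP and TP63, and 4 fell (23.7%), namely CEMIP, JUN, JAG1 and HBEGF. For CEMIP and JUN the arms thus went opposite ways, each past the threshold.

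**Figure D3:**
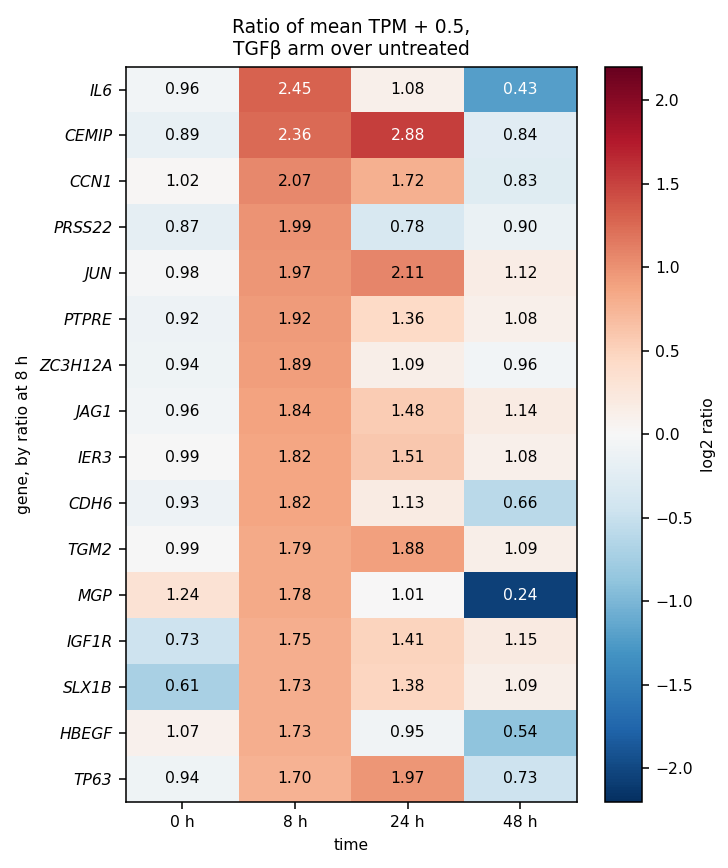
Each cell gives the ratio of mean TPM + 0.5 in the TGFβ arm to that in untreated cells (n = 3 libraries per mean) for a gene (row) at a time (column), coloured by its log2. At 8 h all 16 ratios are between 1.7 and 2.45 and at 48 h between 0.24 and 1.15, as the rule sets, and at 24 h they range from 0.78 in PRSS22 to 2.88 in CEMIP.

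Secreted and membrane-bound signals made up 4 of the 16. IL6 (chr7:22725884-22732002), the cytokine that signals through IL6ST and STAT3, had the highest ratio at 8 h. Its TPM at 8 h was 1.73, 1.65 and 2.55 in untreated and 5.57, 4.78 and 6.35 in TGFβ-treated cells. At 24 h it was 4.12, 3.78 and 3.71 in untreated and 4.34, 4.18 and 4.10 in TGFβ-treated cells. At 48 h it was 13.7, 14.3 and 13.3 in untreated and 6.05, 5.53 and 5.45 in TGFβ-treated cells. So the libraries of the arms lay apart at 8 h, overlapped at 24 h and lay apart the other way at 48 h, with untreated cells 2.43 times as high. The log2 difference at 24 h was 0.31 ± 0.098 (SE, adjusted p = 0.014), which missed the threshold. Both arms rose from 0 h to 24 h, by a log2 change of 0.59 in the TGFβ arm (adjusted p = 6.1e-05) and 0.37 in untreated cells (adjusted p = 0.0066), the latter not called by DESeq2. IL6 lies across the antisense genes IL6-AS1 and STEAP1B, and it rested on few reads, between 70 and 429 estimated counts per library. The reads were also spread over several transcripts: IL6-201, the transcript of the window above, held 54.7% of IL6 TPM in untreated cells at 48 h but 2.39% in TGFβ-treated cells at 8 h, where IL6-204 held 41.2%. At 8 h IL6-201 stood at 0.143 TPM in untreated and 0.133 in TGFβ-treated cells. IL6-204, which starts at 22725884, upstream of the window, stood at 0.766 and 2.29. Of transcripts that start inside the window, IL6-207 stood at 0.203 and 0.957, IL6-209 at 0.33 and 0.832 and IL6-202 at 0.345 and 0.948. Such shares and values depend on how kallisto divides reads among overlapping transcripts.

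HBEGF (chr5:140332843-140346603), a ligand of the EGF receptor, was highest in the TGFβ arm at 8 h, a time at which the rule favours a high level. Its TPM was 2.25 ± 0.256 (SD, n = 3) at 0 h in the TGFβ arm, 5.10 ± 0.299 at 8 h, 1.58 ± 0.0590 at 24 h and 2.37 ± 0.124 at 48 h. Untreated cells stood at 2.08 ± 0.0300, 2.75 ± 0.155, 1.69 ± 0.127 and 4.83 ± 0.138 at these times. Only the TGFβ group at 8 h lifted HBEGF past the level of 5 TPM that the rule asked for. At 24 h the libraries overlapped, at 1.55, 1.80 and 1.72 in untreated and 1.53, 1.65 and 1.57 in TGFβ-treated cells, and the log2 difference was -0.04 ± 0.091 (SE, adjusted p = 0.74). HBEGF fell from 0 h to 24 h in both arms, by 0.53 on the log2 scale in the TGFβ arm (adjusted p = 2.5e-05) and by 0.36 in untreated cells (adjusted p = 0.0014). Other ligands of the same receptor family did not share this course at 8 h: AREG had a ratio of 0.66, EREG of 0.76, BTC of 0.66 and TGFA of 0.90. At 24 h AREG was lower in TGFβ-treated cells with a log2 difference of -0.97 (adjusted p = 7.3e-12) and EREG with -0.67 (adjusted p = 5.2e-06).

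CCN1 (chr1:85580761-85584589), also known as CYR61, encodes a secreted matricellular protein that binds integrins. At 8 h its TPM was 30.8, 32.5 and 33.3 in untreated and 69.0, 66.5 and 66.0 in TGFβ-treated cells. At 24 h the values were 22.8, 21.6 and 23.8 against 38.3, 40.2 and 39.9. At 48 h they were 76.0, 75.6 and 73.4 against 63.1, 60.6 and 61.6 (mean ± SD 75.0 ± 1.42 and 61.8 ± 1.26, n = 3). The arms never overlapped after 0 h, and their order turned between 24 h and 48 h. The log2 difference was 0.84 ± 0.047 at 24 h (SE, adjusted p = 4.6e-12). Both means were lower at 24 h than at 8 h, and both arms rose from 0 h to 24 h, by 1.35 on the log2 scale in the TGFβ arm (adjusted p = 2.4e-15) and 0.57 in untreated cells (adjusted p = 4.6e-09). CCN2, its close relative, stayed high, with ratios of 7.66 at 8 h, 7.59 at 24 h and 3.85 at 48 h.

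JAG1 (chr20:10637684-10673999), a membrane-bound ligand of Notch receptors, was highest at 0 h in untreated cells. Its TPM there was 25.8, 24.1 and 26.0 at 0 h, 20.4, 20.5 and 18.8 at 8 h, 16.6, 15.8 and 15.7 at 24 h and 13.8, 13.8 and 13.6 at 48 h. In the TGFβ arm it was 20.5, 25.4 and 26.9 at 0 h, 37.5, 37.6 and 35.8 at 8 h, 23.7, 24.0 and 24.2 at 24 h and 15.9, 16.8 and 14.3 at 48 h. The libraries of the TGFβ arm lay above the untreated ones from 8 h on, also at 48 h, where the ratio of 1.14 was just inside the limit. A log2 difference of 0.62 ± 0.043 was found at 24 h (SE, adjusted p = 1.6e-10). JAG1 fell from 0 h to 24 h in untreated cells by 0.70 on the log2 scale (adjusted p = 1.9e-11), and in the TGFβ arm the change was -0.05 (adjusted p = 0.37). Of 6 Notch targets in the list of Notch and Wnt genes, HES1 had ratios of 1.47, 1.64 and 1.87 at 8, 24 and 48 h and HEY1 of 1.62, 1.69 and 1.76. At 24 h both were higher in TGFβ-treated cells, HES1 by 0.77 (adjusted p = 1.8e-10) and HEY1 by 1.59 (adjusted p = 3.3e-08) on the log2 scale. HEYL was lower, with a log2 difference of -0.52 (adjusted p = 0.0025), and NRARP (-0.50), HES4 (-0.41) and HEY2 (0.06) did not pass.

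JUN, TP63 and ZC3H12A act on transcription or on mRNA, and IER3 is described with them as an early response gene. JUN (chr1:58776845-58784048), a subunit of AP-1, had a TPM of 37.5, 38.1 and 38.6 in untreated and 79.9, 73.6 and 72.9 in TGFβ-treated cells at 8 h. At 24 h it was 26.2, 22.7 and 25.6 against 59.5, 47.0 and 52.2. At 48 h it was 58.4, 54.7 and 51.9 against 62.3, 62.1 and 61.3. The arms did not overlap at any of these times, but the gap narrowed at 48 h, where untreated cells stood 2.21 times as high as at 24 h. By limma voom the log2 difference at 24 h was 1.12 ± 0.10 (SE, adjusted p = 1e-08). JUN rose from 0 h to 24 h in the TGFβ arm by 0.47 on the log2 scale (adjusted p = 0.00034) and fell in untreated cells by 0.66 (adjusted p = 1.1e-05). At 0 h the TGFβ arm stood at 37.6, 31.1 and 43.5 TPM, around the untreated 39.2, 35.7 and 39.6. Other AP-1 genes differed in direction at 24 h. JUNB was higher, like JUN, by 0.90 (adjusted p = 2.1e-05), and its ratio was still 2.75 at 48 h. FOS was lower, with a log2 difference of -1.18 (adjusted p = 4.5e-07), as was FOSL1, with -0.66 (adjusted p = 5.8e-05).

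IER3 (chr6:30743199-30744548), an early response gene linked to cell survival, was the most abundant of the 16 at 8 h. Its TPM was 86.2, 87.1 and 82.4 in untreated and 159.1, 154.2 and 153.1 in TGFβ-treated cells. At 24 h the values were 89.9, 93.5 and 103.5 against 157.1, 130.0 and 147.4. At 48 h they were 239.9, 255.3 and 233.5 against 270.8, 262.8 and 252.7. Here the arms came to overlap because both stood higher than before, untreated cells at 2.54 and the TGFβ arm at 1.81 times their level at 24 h. The log2 difference at 24 h was 0.63 ± 0.085 (SE, adjusted p = 3.5e-06). From 0 h to 24 h IER3 rose in the TGFβ arm by 0.71 on the log2 scale (adjusted p = 4.2e-07), and the untreated change was 0.08 (adjusted p = 0.43).

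ZC3H12A (chr1:37474580-37484377) encodes Regnase-1, a ribonuclease that degrades mRNAs of inflammatory genes, the IL6 mRNA among them. At 8 h its TPM was 13.4, 12.9 and 13.1 in untreated and 25.3, 25.3 and 25.1 in TGFβ-treated cells. The arms overlapped at 24 h, at 17.1, 14.6 and 18.1 against 19.2, 15.4 and 19.9, with a log2 difference of 0.11 ± 0.12 (SE, adjusted p = 0.50). At 48 h they stood at 41.3 ± 1.82 and 39.8 ± 3.40 (mean ± SD, n = 3), each more than at 8 h. ZC3H12A rose from 0 h to 24 h in both arms, by 0.70 on the log2 scale in the TGFβ arm (adjusted p = 4.9e-05) and 0.52 in untreated cells (adjusted p = 0.0011).

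TP63 (chr3:189631389-189897276) encodes p63, the p53 family factor of basal and squamous epithelia. Its TPM at 8 h was 18.2, 15.8 and 16.1 in untreated and 27.4, 28.7 and 30.3 in TGFβ-treated cells, and its ratio of 1.704 was the lowest inside the limit. At 24 h it was 15.7, 16.2 and 16.1 against 29.4, 34.7 and 32.0, a log2 difference of 1.02 ± 0.067 (SE, adjusted p = 6.4e-11). At 48 h the order was turned, at 36.0, 37.5 and 36.9 in untreated and 26.1, 27.2 and 27.2 in TGFβ-treated cells. The libraries of the arms thus lay apart at all 3 times. TP63 rose from 0 h to 24 h in both arms, by 1.76 on the log2 scale with TGFβ (adjusted p = 1.4e-14) and 0.75 without (adjusted p = 1.9e-08). The gene has an upstream start, from which the TA isoforms with the full transactivation domain are made, and a downstream start for the ΔN isoforms that dominate in squamous cells. In these cells the 6 transcripts from the upstream start carried most of the signal in each group, 26.8 ± 2.56 TPM (SD, n = 3) in TGFβ-treated cells at 8 h and 35.6 ± 0.423 in untreated cells at 48 h. The 8 transcripts that start downstream held between 3.33% and 11.7% of TP63 TPM. Their sum varied among replicates, for example 0.801 ± 0.73 TPM (SD, n = 3) in untreated cells at 0 h. As for IL6, such shares depend on how kallisto divides reads among overlapping transcripts. The window printed above is that of the upstream start. The basal markers did not move together: KRT17 had ratios of 6.74, 19.85 and 12 at 8, 24 and 48 h, SOX2 of 0.40, 0.20 and 0.16. Of the 9 tested squamous and basal markers, 3 were higher and 2 lower at 24 h, and the median log2 difference was 0.01.

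**Figure D4:**
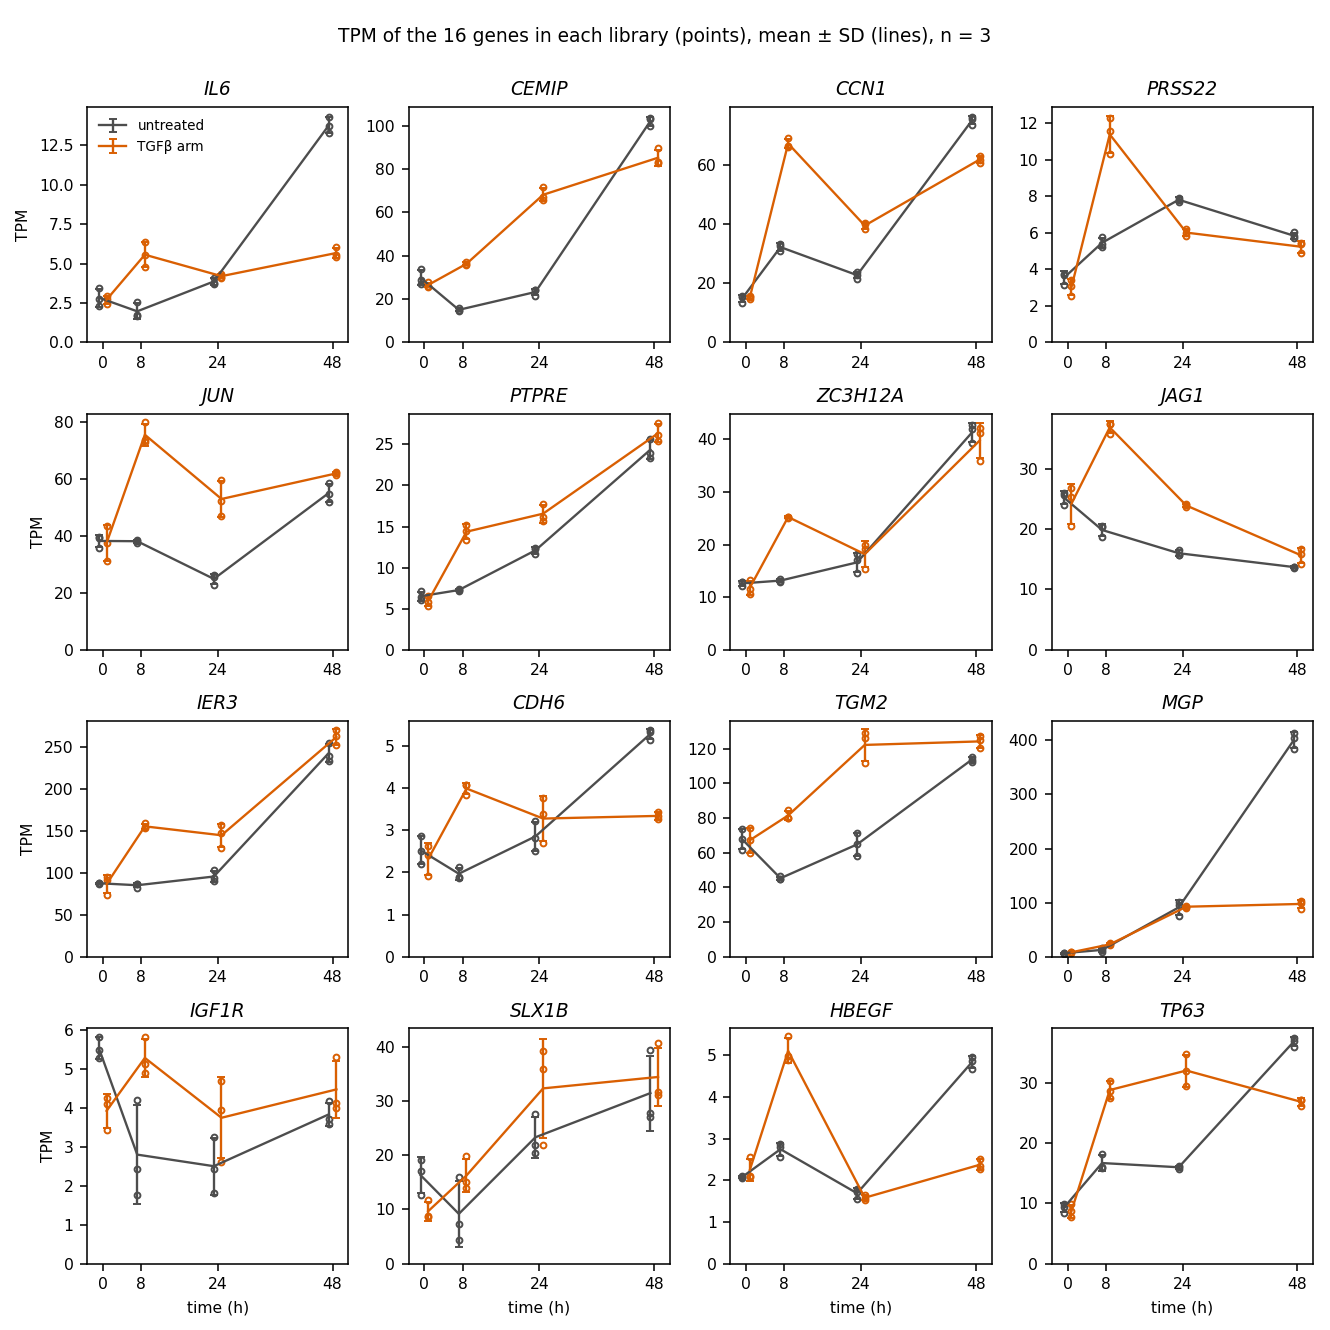
Each panel plots a gene's TPM (y axis, from 0) against time (x axis, hours) in untreated cells (dark grey) and in the TGFβ arm (orange), where open points are libraries, and lines join means with bars of ± SD (n = 3). At 8 h the orange mean lies above the grey one in every panel, and by 48 h grey has passed orange without overlap in IL6, CEMIP, CCN1, PRSS22, CDH6, MGP, HBEGF and TP63. The bars are widest, relative to the level, in IGF1R and SLX1B.

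Matrix and cell surface genes held the largest difference at 24 h and the largest swing to 48 h. CEMIP (chr15:80779343-80951776), which is needed for the breakdown of hyaluronan, had a TPM of 14.5, 14.9 and 15.8 in untreated and 35.8, 37.0 and 36.1 in TGFβ-treated cells at 8 h. At 24 h it was 24.1, 21.5 and 24.3 against 71.5, 65.8 and 67.1. At 48 h it was 103.7, 102.9 and 99.8 against 89.5, 83.0 and 83.2. The TGFβ arm thus stood higher at each later time, while untreated cells were lower at 8 h than at 0 h (15.1 against 29.8 TPM) and passed the TGFβ arm at 48 h, at 4.38 times their level at 24 h. The log2 difference at 24 h was 1.63 ± 0.060 (SE, adjusted p = 3.9e-15). From 0 h to 24 h CEMIP rose with TGFβ by 1.41 on the log2 scale (adjusted p = 3.1e-14) and fell in untreated cells by 0.42 (adjusted p = 7.1e-06).

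TGM2 (chr20:38127385-38166578), a transglutaminase that crosslinks proteins, followed a like course. Its TPM at 8 h was 46.3, 44.6 and 44.9 in untreated and 84.4, 80.3 and 79.8 in TGFβ-treated cells. At 24 h it was 64.8, 58.3 and 71.3 against 126.0, 111.5 and 129.1, and at 48 h 115.5, 113.7 and 112.2 against 124.9, 127.4 and 120.4. The TGFβ arm reached its upper level by 24 h, at 122.2 and then 124.2 TPM on average, and the untreated cells came close to it at 48 h without overlap. The log2 difference at 24 h was 0.95 ± 0.053 (SE, adjusted p = 4.3e-12). From 0 h to 24 h TGM2 rose in the TGFβ arm by 0.81 on the log2 scale (adjusted p = 3.4e-11), with an untreated change of -0.07 (adjusted p = 0.28).

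MGP (chr12:14880864-14885857), matrix Gla protein, an inhibitor of calcification, showed the widest range. Untreated cells stood at 6.50 ± 1.16 TPM (SD, n = 3) at 0 h and 400.1 ± 15.1 at 48 h, 61.5 times as high. The TGFβ arm stood at 8.20 ± 1.18 at 0 h and 97.5 ± 7.62 at 48 h. Libraries overlapped at 24 h, at 75.8, 101.3 and 96.4 in untreated and 94.3, 92.5 and 90.5 in TGFβ-treated cells, and the log2 difference was 0.02 ± 0.093 (SE, adjusted p = 0.89). At 8 h they lay apart, at 9.49, 12.3 and 16.1 against 20.8, 22.8 and 24.7. Both arms rose from 0 h to 24 h, by 3.43 on the log2 scale with TGFβ (adjusted p = 1.3e-14) and 3.60 without (adjusted p = 1.9e-14). The TGFβ arm was level from 24 h to 48 h (a factor of 1.06), whereas the untreated mean was 4.39 times as high at 48 h.

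CDH6 (chr5:31193686-31329146), a cadherin of cell-cell contacts, was low throughout and passed the level of 5 TPM only through untreated cells at 48 h (5.15, 5.39 and 5.33). At 8 h it was 1.87, 2.14 and 1.90 in untreated and 4.08, 3.83 and 4.07 in TGFβ-treated cells. The TGFβ arm then stayed between 2.70 and 3.76 at 24 h and stood at 3.35 ± 0.0896 (SD, n = 3) at 48 h. They overlapped at 24 h, with untreated cells at 2.83, 3.22 and 2.52, and the log2 difference was 0.17 ± 0.098 (SE, adjusted p = 0.18). CDH6 rose from 0 h to 24 h in the TGFβ arm by 0.40 on the log2 scale (adjusted p = 0.0022), and the untreated change was 0.24 (adjusted p = 0.052).

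PRSS22 (chr16:2852730-2858170), a serine protease of airway epithelium, was highest at 8 h with TGFβ, at 11.6, 10.3 and 12.3 TPM against 5.77, 5.37 and 5.25. The order was turned at 24 h, at 5.86, 5.99 and 6.21 against 7.83, 7.69 and 7.94 in untreated cells. The arms lay apart at 24 h in TPM, yet the log2 difference from counts was -0.26 ± 0.098 (SE, adjusted p = 0.043) and missed the threshold. At 48 h TGFβ-treated cells stood at 5.24 ± 0.313 and untreated cells at 5.85 ± 0.171 (SD, n = 3). Its ratio of 0.78 at 24 h was the lowest of the 16. PRSS22 rose from 0 h to 24 h in both arms, by 0.87 on the log2 scale with TGFβ (adjusted p = 2.1e-06) and 0.88 without (adjusted p = 6.6e-07).

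PTPRE (chr10:127907103-128085855), a receptor-type tyrosine phosphatase, stood higher at each later time in both arms. Its TPM at 8 h was 7.23, 7.40 and 7.14 in untreated and 15.2, 13.4 and 14.5 in TGFβ-treated cells, and at 24 h 12.3, 11.6 and 12.4 against 15.7, 16.2 and 17.8. At 48 h the arms overlapped, at 24.0, 25.7 and 23.4 against 27.6, 26.1 and 25.4. The log2 difference at 24 h was 0.53 ± 0.035 (SE, adjusted p = 5.9e-11). PTPRE rose from 0 h to 24 h by 1.38 on the log2 scale with TGFβ (adjusted p = 2.3e-17) and by 0.78 without (adjusted p = 3.3e-13). Transcript PTPRE-201, which starts in the window shown above, held 83.5% of its TPM in TGFβ-treated cells at 8 h.

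The last pair are uncertain measurements. IGF1R (chr15:98648539-98964530) encodes a receptor of insulin-like growth factors, but the transcript that GENCODE 44 marks as canonical was not among those summed here, and of the 16 genes this held for IGF1R alone (4.94% of genes at this level). What was summed were 15 other transcripts with 38 to 234 estimated counts per library. Its TPM at 24 h was 3.26, 1.81 and 2.43 in untreated and 3.93, 2.62 and 4.67 in TGFβ-treated cells, which overlap, and the log2 difference was 0.16 ± 0.41 (SE, adjusted p = 0.80). SLX1B (chr16:29454533-29458219), a subunit of a structure-specific nuclease, has a near-identical copy in the genome, SLX1A, so that reads can be divided between them. Its untreated libraries at 8 h stood at 16, 7.25 and 4.35 TPM, and the TGFβ libraries at 15, 19.8 and 14.0, so that SLX1B alone of the 16 overlapped at 8 h. The other 15 did not overlap at 8 h with TGFβ higher, as did 20.9% of genes at this level, which the rule favours. At 24 h SLX1B had a log2 difference of 0.50 ± 0.29 (SE, adjusted p = 0.18). At 0 h its arms lay apart, at 17.1, 19.2 and 12.7 in untreated and 8.76, 11.7 and 8.59 in the TGFβ arm, before TGFβ could act. Without IGF1R and SLX1B the count at 24 h was 8 of 14, with a median log2 difference of 0.58.

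At 48 h, 3 of the 16 genes (JUN, JAG1 and TGM2) still lay apart with TGFβ higher (29.6% of all genes at this level), and 8 lay apart with TGFβ lower (34.7%). These 8 were IL6, CEMIP, CCN1, PRSS22, CDH6, MGP, HBEGF and TP63. In the remaining 5 the arms overlapped. As the rule limits the ratio at 48 h, these counts are a description.

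The limits of the rule cut through a continuum. At the limit of 1.7 at 8 h, the nearest genes inside were TP63 (1.704), HBEGF (1.726) and SLX1B (1.731), and the nearest outside were PLK3 (1.699), POLR1G (1.695) and ETS2 (1.689). At the limit of 1.2 at 48 h, IGF1R (1.148), JAG1 (1.137) and JUN (1.124) were nearest inside, and GCOM1 (1.211), CSRNP1 (1.258) and G0S2 (1.297) nearest outside. ETS2 and CSRNP1 are transcription factors and PLK3 is a kinase of the stress response.

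The pathways of the 16 genes were described by lists of related genes. Of 49 tested immediate-early and AP-1 factors, 24 were higher and 12 lower at 24 h, with a median log2 difference of 0.23. Of the 43 of them at the level of the rule, 7 had a ratio of at least 1.7 at 8 h, and JUN and IER3 were those at 1.2 or below at 48 h. MAFK (1.75 at 8 h and 1.45 at 48 h) and CSRNP1 (1.97 and 1.26) lay between that limit and 1.7 at 48 h, while JUNB (2.75 and 2.75), KLF7 (1.94 and 2.04) and BHLHE40 (3.73 and 4.63) stayed above 1.7. Of 45 tested growth factors and cytokines, 12 were higher and 18 lower at 24 h, with a median of -0.26, and 9 of 36 had a ratio of at least 1.7 at 8 h. Of those 9, IL6, HBEGF and CCN1 were at most 1.2 at 48 h, whereas IL11 (9.99 and 5.06) and PDGFB (3.35 and 4.26) stayed up. Of 37 tested Notch and Wnt genes, 16 were higher and 9 lower at 24 h, with a median of 0.17, and JAG1 was 1 of 6 with a ratio of at least 1.7 at 8 h.

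In the SMAD signalling and feedback list, 22 of 44 tested genes were higher and 11 lower at 24 h, with a median of 0.14. The 8 with a ratio of at least 1.7 at 8 h all kept a ratio above 1.2 at 48 h. Among them were PMEPA1 (10.02 and 18.0), an inhibitor of the pathway, and SMAD7 (3.95 and 5.37), the inhibitory SMAD. The same was true of the 12 such genes among 48 for actin, SRF and adhesion, where 33 of 52 tested genes were higher and 4 lower at 24 h (median 0.57). It was also true of the 11 among 46 for extracellular matrix and proteases, where 34 of 54 were higher and 6 lower (median 0.82). CEMIP, TGM2, MGP and PRSS22 were not on the matrix list and IGF1R was not on the receptor list, so that the absence of the 16 genes from these lists reflects how the lists were made. The EMT transcription factors had 5 such genes (6 of 17 tested higher and 3 lower, median 0.15), the receptors of cytokines and growth factors 3 (14 of 40 higher and 13 lower, median 0.03), ion and solute transport 4 (7 of 26 higher and 6 lower, median 0.07) and the genes of ERK and AKT feedback 2 (10 of 31 higher and 11 lower, median -0.12). ATF4, amino acid and serine genes had 2 and NF-κB and interferon genes 1, none of which was among the 16. At 24 h, 36 of 44 tested genes of the ATF4 list were higher and 3 lower (median 0.87), and 1 of 39 NF-κB and interferon genes was higher and 22 lower (median -0.33). Ribosome biogenesis, cholesterol synthesis, glycolysis and the cell cycle had 0 genes with a ratio of at least 1.7 at 8 h. Their counts at 24 h were 5 of 41 higher and 1 lower (median 0.09), 0 of 32 higher and 21 lower (median -0.33), 5 of 34 higher and 14 lower (median -0.15) and 15 of 42 higher and 11 lower (median 0.00).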

How the data were processed

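RNA of 24 libraries was sequenced by the authors on an Illumina HiSeq 4000 and quantified with kallisto 0.43.0 against Ensembl release 79 (GRCh38). The authors deposited, for 173259 transcripts per library, estimated counts, which kallisto gave and which are not normalized, with TPM values and effective lengths. For the present values, 155518 transcripts (89.8%), with 94.82% to 95.18% of the counts, were assigned to genes of GENCODE 44 and summed, and the other 17741 were left out. Strand was not used, so that IL6 and its overlapping antisense genes cannot be told apart. Gene sums were rounded, genes that reached 10 in fewer than 3 libraries were dropped, and the rest were tested with limma 3.58.1 (voom, TMM factors from edgeR 4.0.16) in R 4.3.3, with 1 mean per group and Benjamini-Hochberg adjustment over all 17453 genes. All 16 genes passed this filter. The effective lengths deposited by the authors served only for length-scaled counts.

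Some lists are not reported here. The genes, the lists and the tests were chosen with earlier results of these data known. Any of the 16 genes was named, and the others were taken from the lists or as nearest to the limits. Replicates differed by more than sampling noise in all 24 pairs within groups (chi-square per gene 3.17 to 60.46, where 1 is sampling noise). The labels give the replicates the letters a, b and c, which are numbered here from 1 to 3 in that order. Among 11757 genes with a mean log2 CPM above 2, deviations from the group mean correlated between same-numbered libraries of the arms by 0.26 to 0.74 at 0 h and 0.47 to 0.76 at 24 h, and by -0.04 to 0.17 at 8 h and 48 h. The pairing thus comes from the data and holds for 0 h and 24 h. Over all tested genes the values were 0.07 to 0.30 and 0.09 to 0.30. Alternatives were edgeR, DESeq2 1.42.0, limma on log2 TPM, other scalings and filters, the replicate block, fewer time points and each library left out. The scripts were tested on simulated data. Tables and figures were made with Python 3.11.15, pandas 2.3.3 and matplotlib 3.10.9.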

Additional observations from a re-analysis of the deposited data

Results flagged for a closer look

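From 0 h to 24 h the gap between TGFβ-treated and untreated cells changed in 8 of the 16 genes by the interaction test (limma voom, adjusted p below 0.01), in each case upwards. Of all 17453 tested genes, 9.56% passed with a rise and 7.02% with a fall. A rise was called in 12.5% of the genes at the level of the rule and in 93.9% of the sustained genes. The change on the log2 scale was 1.82 ± 0.086 (SE) in CEMIP, 1.13 ± 0.14 in JUN, 1.01 ± 0.10 in TP63, 0.88 ± 0.076 in TGM2, 0.78 ± 0.070 in CCN1, 0.65 ± 0.061 in JAG1, 0.63 ± 0.12 in IER3 and 0.60 ± 0.053 in PTPRE. The adjusted p was lowest in CEMIP (7.9e-13) and highest in IER3 (0.00052). Treatment and the codes in the file names cannot be told apart in these values.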

How the results depend on the processing

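Of the 8 genes called higher at 24 h, all kept that call and direction under each of the 38 alternatives. With the 4 qRT-PCR reference genes as library size, the count was 14 higher at 24 h, 0 lower at 24 h than 0 h in the TGFβ arm and the median 0.96, but this scaling moved the median of all genes to 0.429, and the 16 genes stood 0.53 above it, as with TMM factors. Under it PRSS22 had 0.19 and HBEGF 0.40. Library totals moved the median of all genes to -0.11, gave the 16 genes a median of 0.42, called 1 gene lower at 24 h (PRSS22, -0.35) and put MGP at -0.08, and upper-quartile factors put MGP at -0.04. PRSS22 was also the 1 gene called lower under log2(TPM + 1), under log2(TPM + 0.1) and at an adjusted p of 0.05. Leaving out a library gave 8 to 9 genes higher at 24 h, a median between 0.43 and 0.66, values of IGF1R from -0.21 to 0.72 and of MGP from -0.09 to 0.10, and 15 to 20 genes by the rule. IL6 passed, at 0.31, without replicate 1 or 2 of the TGFβ arm at 0 h or replicate 2 of untreated cells at 48 h. With the replicate number as a replicate block, 8 genes were higher at 24 h and 8 differences rose. With that block on the libraries of 0 h and 24 h alone, chosen after seeing the data, these were 8 and 9, the latter with SLX1B, and 6 rather than 7 genes rose in untreated cells, without IL6. It changed no other call. Without the block those libraries alone gave 3292 calls over all genes at 24 h against 5112, and 1633 for the change of the difference against 2893. Among the 16 genes the change was then called in 7, without IER3, CDH6 was no longer called in the TGFβ arm, and IL6, ZC3H12A and HBEGF were no longer called in untreated cells. With a limit of 1.5 at 8 h the rule took 33 genes, with 2 it took 3 (IL6, CEMIP and CCN1), and with TMM-scaled CPM 25, which included all 16. An offset of 1 left 11, without CDH6, HBEGF, IGF1R, SLX1B and TP63, a mean of at least 10 TPM left 13, without CDH6, HBEGF and IGF1R, and a limit of 1.1 at 48 h left 13, without IGF1R, JAG1 and JUN. Leaving out 1 library dropped HBEGF, IGF1R, MGP, SLX1B or TP63 in some cases.

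IL6, HBEGF, PRSS22 and IGF1R had the fewest reads, and how far counting error limits them was not tested. Their SE at 24 h was 0.098, 0.091, 0.098 and 0.41, against 0.10 in JUN and 0.12 in ZC3H12A, which had more reads. The 24 h tests had 3 libraries per group, and the codes in the file names coincide with the arms. Whether the replicates came from separate cultures is stated only as biological replicates.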

Other observations

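At 8 h, before the later climb of the untreated cells, 7 of the 16 genes stood lower in untreated cells than at 0 h by a factor of at least 1.2, with CEMIP at 0.505, SLX1B at 0.563, IGF1R at 0.506, TGM2 at 0.668 and IL6 at 0.695 times their 0 h level, while all 16 stood higher by that factor in the TGFβ arm, from 1.21 times in TGM2 to 4.42 times in CCN1. By 48 h, 14 genes in untreated cells and 13 in the TGFβ arm stood at 1.2 times or more of their level at 0 h. The exceptions were JAG1 (0.543 times) and IGF1R (0.693) in untreated cells and JAG1 (0.646), HBEGF (1.05) and IGF1R (1.14) in the TGFβ arm. These levels carry no test, since the 8 h and 48 h libraries chose the genes. The rule itself favours a low untreated level and a high TGFβ level at 8 h. Shares over all genes are not given for these counts, so they cannot be called unusual.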
